A study of Mus musculus with 8 samples.

Results

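The genes described here are 56 regulators of the actin cytoskeleton, grouped around the profilin gene *Pfn1*, of 42748 genes in a bulk RNASeq count table. They were taken by gene symbol, and the list was proposed with *Pfn1* already known as one of the few genes that were higher in Ripk1-deficient cells of these data. Values of the comparison between both groups are therefore a description of these genes and not a test of them. *Coro1b* stood on 2 rows of the table, of which the one with 110855 counts in all libraries was kept and the one with 0 counts was not. All 56 genes were found in the table, and 54 had counts in numbers that could be tested. *Myl12a* and *Myl12b*, which encode light chains of non-muscle myosin II, were listed at 0 in all 8 libraries. Their spans are 0% free of other annotated genes, *Gm26561* among them.

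The Treg cells were those of *Ripk1* fl/fl *Foxp3* Cre/wt animals, chimeric females that carry Cre with YFP in the *Foxp3* locus of 1 X chromosome. CD4+ CD25+ cells of pooled spleen and lymph nodes were sorted by YFP into 4 YFP+ libraries, labelled Ripk1-/- (Ripk1-deficient), and 4 YFP- libraries, labelled Ripk1+/+ (Ripk1-proficient), which are named here by the numbers 21, 46, 48 and 53. Both fractions carry the floxed *Ripk1* alleles and grew in the same kind of mouse, and the age of the mice is not given in the labels. Cre acts only where *Foxp3* is expressed, and the Cre and YFP knock-in is active only in YFP+ cells, so that the knock-in and the loss of Ripk1 cannot be told apart. The labels do not say that libraries came from separate mice, so p-values measure the spread between libraries, which may be technical.

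Actin filaments grow by the addition of ATP-bound actin monomers, and profilin binds these monomers, exchanges their nucleotide and hands them to growing filament ends. Thymosins hold monomers in reserve, cofilins sever old filaments, the Arp2/3 complex starts branches, and formins and Ena/VASP proteins extend unbranched filaments. In T cells this machinery shapes the immunological synapse and drives migration, and several of its genes, among them *Was*, *Coro1a*, *Dock8* and *Arpc1b*, cause immunodeficiency in humans when mutated. Many actin genes are targets of the serum response factor, which binds a sequence called the CArG box and which actin monomers restrain through the MRTF coactivators.

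Promoter windows of RefSeq on GRCm38.p6, from 250 bases before to 50 bases after each transcript start, were matched by symbol to 49 of the 56 genes, with 63 windows in all. The remaining genes had no matched window and were not searched, so nothing is stated on their promoters. A CArG box, 2 C, 6 bases of A or T and 2 G, read on both strands, stood in 4 of these 63 windows (6.35%) and in 1.63% of all 32851 windows. The windows belong to *Actg1*, *Myl6*, *Vcl* and *Arpc4*, and those of the first 3 are shown because the CArG box is the element by which actin genes are known to be controlled together. Each is written 5′ to 3′ on the strand of the gene with the CArG box in capitals, *Actg1* from chr11:120348551-120348610, minus strand, *Myl6* from chr10:128493025-128493084, minus strand, in 1 of its start windows, and *Vcl* from chr14:20929148-20929205, plus strand. The stretch of *Myl6* lies inside its annotated span (chr10:128490860-128494145), at an internal start.
Actg1: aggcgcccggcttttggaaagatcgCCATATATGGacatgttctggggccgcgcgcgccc
Myl6: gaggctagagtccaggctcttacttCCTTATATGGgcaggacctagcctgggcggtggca
Vcl: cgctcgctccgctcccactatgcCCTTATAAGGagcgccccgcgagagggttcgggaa
The CArG box of *Arpc4* lies at the far edge of its window, 250 bases before the start. No CArG box is in the window of *Pfn1*, whose 120 bases before the start (chr11:70654651-70654770, minus strand) are shown with both matches to GGGCGG in capitals, here as the reverse complement CCGCCC. The gene is the one on which the comparison turns.
Pfn1: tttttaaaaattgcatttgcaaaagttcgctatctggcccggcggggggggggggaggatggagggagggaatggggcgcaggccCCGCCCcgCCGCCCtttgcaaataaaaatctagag
GGGCGG, on either strand, stood in 69.8% of the windows of the actin genes and in 35.7% of all windows. TATAAA stood in 7.94% against 13.6%, and CCAAT in 23.8% against 37.4%. TATAAA and CCAAT can lie within a CArG box, and a match describes letters only. *Actb* is listed with none of these motifs. Whether it had a matched window is not shown, so this says nothing on its promoter.

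Total counts were 29719251 to 55371610 in YFP+, against 43737313 to 70782679 in YFP- libraries. *Ripk1* itself measured 15.2, 28.7, 19.9 and 26.1 CPM (counts scaled to a common library size with TMM factors) in YFP+ libraries 21, 46, 48 and 53, against 20.5, 44.3, 29.5 and 23.2 CPM in YFP- libraries. The groups overlapped, and a count over the whole gene does not check a deleted exon. *Cd3e*, *Cd4* and *Il2ra*, markers of CD4+ CD25+ T cells, were found in all libraries, while *Foxp3* and *Tnfrsf18* were listed at 0 in all 8. How reads were counted is not given, so a listed 0 does not show that these RNAs were absent. The authors report *Foxp3* RNA as strongly reduced in the Ripk1-deficient cells. Levels of the T and Treg cell markers were not uniform. *Ctla4* was lower in every YFP+ library (121 to 193 CPM) than in any YFP- library (350 to 423 CPM). The groups overlapped in the other markers of this list with counts. Among these, *Cd4* was lowest in the YFP+ library 21, at 84.4 CPM, where YFP- libraries held 372 to 469 CPM. *Ikzf2* varied most widely among YFP+ libraries (107 to 897 CPM, YFP- 257 to 603 CPM). The YFP+ library 21 stood apart. It had 9571 genes with 10 or more counts, against 13047 to 16558 in the other 7, and its highest correlation with another library was 0.652, where the other 7 reached 0.866 to 0.969. Values without it are therefore given beside the fold changes below. Marker genes of other cells were also found, with the highest sums for B cell, MHC class II, macrophage, neutrophil, dendritic cell, NK cell, platelet, erythroid and CD8 T cell genes in the YFP+ library 48. The 7 B cell markers, with *Ms4a1* at 0, summed to 144 to 2216 CPM in YFP+, against 79.0 to 112 CPM in YFP- libraries. For the 5 MHC class II genes the sums were 913 to 16045 CPM in YFP+, against 484 to 772 CPM in YFP- libraries, and for the 7 macrophage and monocyte markers 51.0 to 481 CPM in YFP+, against 9.44 to 19.3 CPM in YFP- libraries. The 6 erythroid markers, with *Alas2* at 0, reached 5063 CPM in the YFP+ library 48, against 292 to 351 CPM in the other YFP+ and 92.2 to 357 CPM in YFP- libraries. The part of these cells in the values below was not tested.

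Together the 56 genes made up 6.78%, 5.59%, 5.31% and 6.09% of all counts in YFP+ libraries 21, 46, 48 and 53, against 4.49%, 4.07%, 4.68% and 4.83% in YFP- libraries. Their summed level was 67444 ± 19018 CPM in YFP+ and 40819 ± 3681 CPM in YFP- libraries (SD, n = 4 each), and 58073 ± 3955 CPM in the YFP+ libraries without 21 (SD, n = 3). The groups did not overlap in either measure. As these are bulk samples, a change in the mix of cells and a change in RNA per cell cannot be told apart. *Pfn1*, *Actb*, *Tmsb4x* and *Tmsb10* carried 45.8% to 65.1% of the summed level in YFP+ and 38.1% to 41.7% in YFP- libraries. A few very abundant genes thus set the sum, and much of the difference lies in the actins, the thymosins with capping proteins and the profilins. The Arp2/3 complex had 11425 CPM in the YFP+ library 21, 5837 to 6144 CPM in the other YFP+ and 4194 to 4803 CPM in YFP- libraries.

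**Figure D1:**
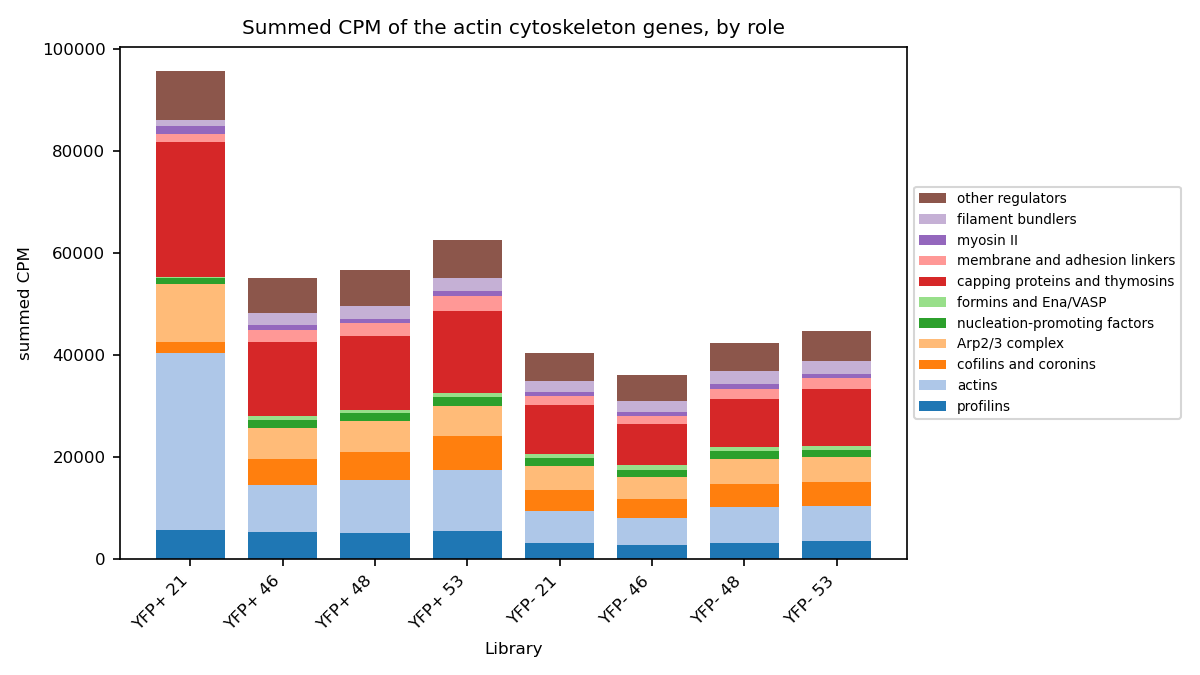
Summed CPM (TMM-scaled) of the 56 genes in each library, stacked by role, with the 4 YFP+ libraries left of the 4 YFP- libraries. The YFP+ library 21 reaches 95557 CPM, the other YFP+ libraries 55129 to 62568 CPM and the YFP- libraries 35988 to 44659 CPM.

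Per kilobase of exon, the scale on which levels of different genes can be set side by side, *Tmsb4x* led with 6849 ± 1675 CPM per kilobase in YFP+ and 3654 ± 528 CPM per kilobase in YFP- libraries (SD, n = 4 each). *Actb* had 5787 ± 4620.4 CPM per kilobase in YFP+ and 2099 ± 275 CPM per kilobase in YFP- libraries. *Pfn1* had rank 4 by its YFP- level, with 2228 ± 114 CPM per kilobase in YFP+ and 1280.0 ± 114 CPM per kilobase in YFP- libraries. In YFP- libraries *Tmsb10* and *Actb* lay within each other's spread, at 2121 and 2099 CPM per kilobase. The lowest levels with counts belonged to *Vcl*, *Limk1* and *Pfn2*, each below 2 CPM per kilobase in both groups, so that the list spans more than 3 orders of magnitude.

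In the fit over all 15063 genes tested (edgeR, quasi-likelihood test, adjusted p under 0.05), 5 genes (0.0332%) were higher and 126 (0.836%) lower in YFP+ Treg cells. Of the 54 actin genes, 1 was past this threshold, *Pfn1*, which was higher, none was lower, and 53 were not past it. Since *Pfn1* was known to differ when the list was made, nothing is read from this count. At an unadjusted p under 0.05 there were 15 of the 54 genes, all higher, where 12.6% of all genes were under it (7.21% higher, 5.35% lower). DESeq2 put 5 past its threshold, all higher (*Pfn1*, *Tmsb4x*, *Capza1*, *Actr3* and *Arpc2*), where it called 3.41% of all genes higher and 3.86% lower. It gave no adjusted p for *Actr2* and *Rdx*. Genes without one were not judged, yet are counted among the 15063. Without the YFP+ library 21, edgeR called 424 of 15832 genes higher (2.68%) and 628 lower (3.97%). In that fit 13 of the 54 genes were higher and 0 lower, namely *Pfn1*, *Actb*, *Cfl1*, *Arpc4*, *Arpc5*, *Actr2*, *Actr3*, *Capza1*, *Capzb*, *Tmsb4x*, *Tmsb10*, *Actn1* and *Arhgdib*. Leaving out the YFP+ libraries 21 and 48 together left 7 of them past the threshold (1.43% of all genes higher, 4.28% lower), *Pfn1*, *Actb*, *Actr2*, *Arpc5*, *Capza1*, *Tmsb4x* and *Actn1*. Leaving out both libraries numbered 21, the YFP+ and the YFP- one, left only 1, *Pfn1* (0.118% of all genes higher, 1.12% lower). The 13 genes thus depend on which libraries are left out.

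The log2 fold change of YFP+ over YFP- libraries was positive in 31 of the 54 genes and negative in 23, with a median of 0.11. Over all genes tested it was positive in 7395 of 15063 with a median of -0.02. Without the YFP+ library 21, 35 of the 54 were positive and the median was 0.33, against -0.01 over all genes. The sign of this small median was not stable, as leaving out both libraries numbered 46 gave -0.05, and leaving out only the YFP+ library 46 gave 0.01. It also depends on the scaling, as TMM factors were lower in YFP+ (0.71 to 1.01) than in YFP- libraries (1.08 to 1.13). In 13 of the 54 genes every YFP+ library lay above every YFP- library, as in 7.83% of all genes. In 4, *Pfn2*, *Cfl2*, *Evl* and *Vasp*, every YFP+ library lay below, as in 10.6% of all genes. The groups overlapped in the other 37. Setting the YFP+ library 21 aside, the YFP+ libraries 46, 48 and 53 were all above the YFP- libraries in 25 genes (12.5% of all genes) and all below in 4 (13.7%).

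**Figure D2:**
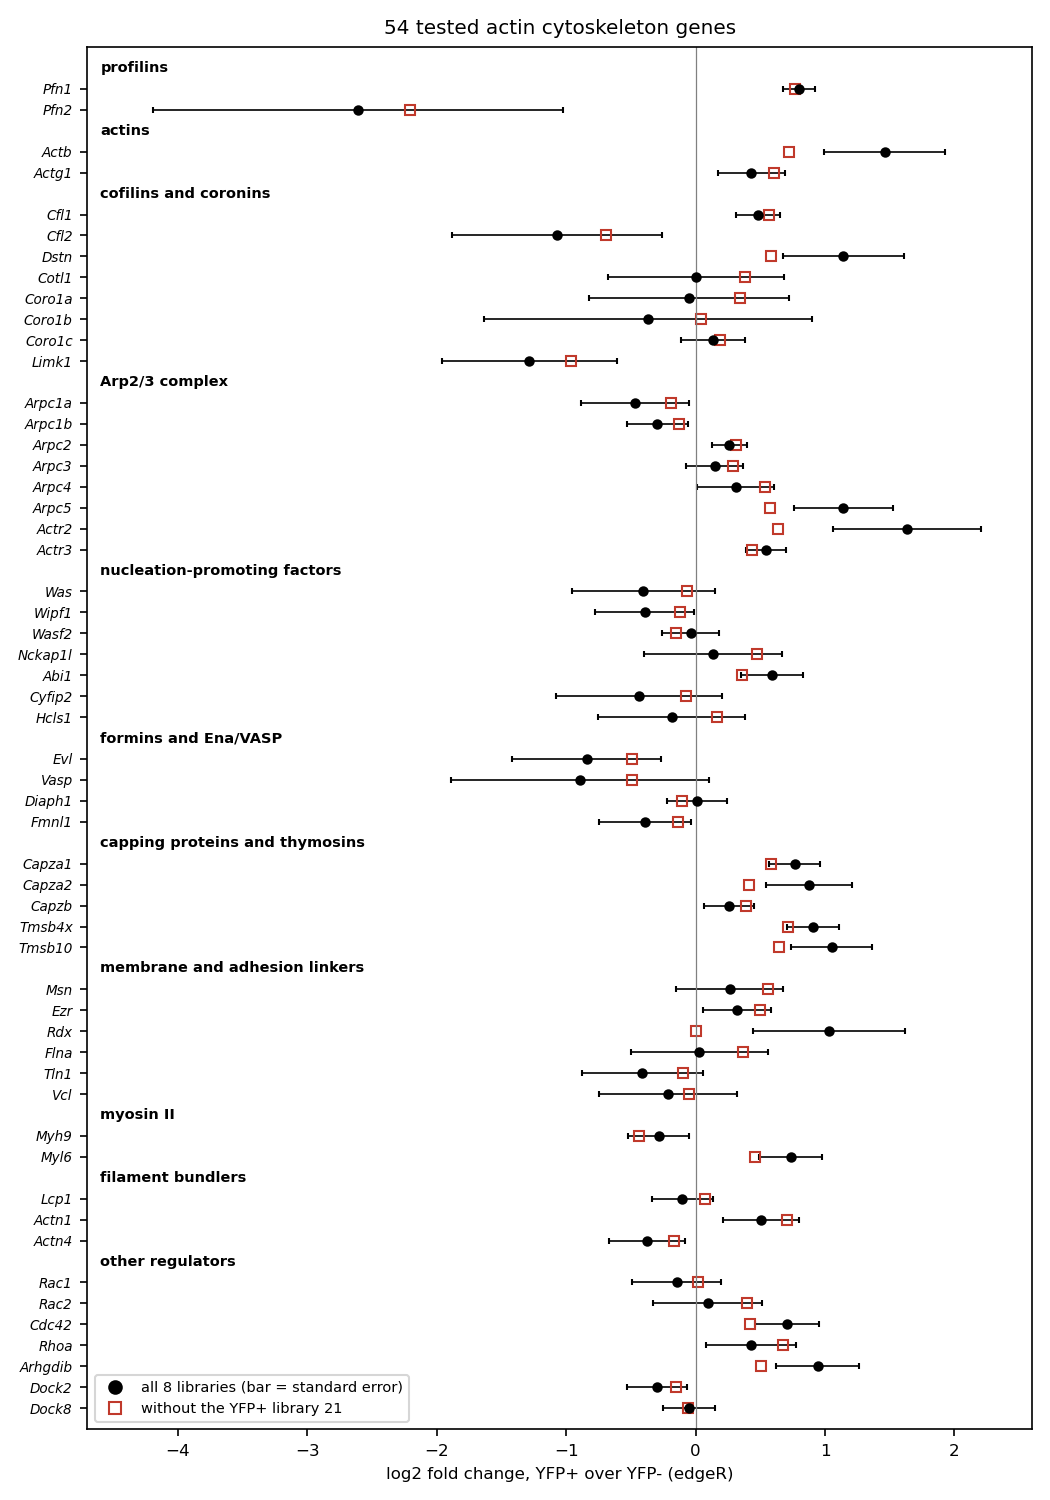
Log2 fold change of YFP+ over YFP- libraries (x axis) for the 54 tested genes, by role from top to bottom. Filled circles with bars are the edgeR estimate and its standard error from all 8 libraries, and open squares the estimate without the YFP+ library 21. Both marks lie close together for *Pfn1* (0.80 and 0.77) and far apart for *Actr2* (1.63 and 0.63), and all 5 capping protein and thymosin genes lie right of 0.

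Profilins come first. *Pfn1* (ENSMUSG00000018293, chr11:70651850-70654644 on GRCm38, minus strand, free of other annotated genes) measured 5668, 5278, 5022 and 5466 CPM in YFP+ libraries, against 3124, 2717, 3089.8 and 3383 CPM in YFP- libraries, each in the order 21, 46, 48 and 53 that is kept for all values by library. On this TMM scale all 4 YFP+ libraries lay above all 4 YFP- libraries, and the 4 values of each group lay close together. The TMM factors were 0.71 in the YFP+ library 21, 0.94 to 1.01 in the other YFP+ and 1.08 to 1.13 in YFP- libraries. The closeness of the values and the size of the difference therefore depend on the scaling. The means were 5358 ± 275 CPM in YFP+ and 3078 ± 274 CPM in YFP- libraries (SD, n = 4 each), with 119577 to 261018 counts behind the YFP+ values. The log2 fold change was 0.80 (SE 0.13), and 0.77 (SE 0.09) without the YFP+ library 21. It stayed between 0.71 and 0.84 in all 21 fits tried, each with scaled libraries, and *Pfn1* was past the threshold in 8 of them. It was not past it in the other 13. In 3 of these other genes were past it, 115 with RLE factors, 10 when genes with low counts were kept in and 9 when more of them were removed. In the other 10 no gene of the table was past it. These were the fit with the library number as a block, and those that left out the YFP+ library 46 or 53, a single YFP- library (each of 4), or both libraries with the number 46, 48 or 53. *Pfn2*, the second profilin and best known from neurons, had 0, 0, 1.75 and 2.36 CPM in YFP+ libraries, against 5.38, 4.48, 10.5 and 4.93 CPM in YFP- libraries. It was low in all and lower in every YFP+ library. Its counts were 0, 0, 91 and 103 in YFP+ and 357 to 508 in YFP- libraries, and the log2 fold change was -2.61 (SE 1.58), or -2.21 (SE 1.33) without the YFP+ library 21, a fitted value that depends on the prior count where counts are 0.

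Actins are the monomers that profilin binds. *Actb*, cytoplasmic beta-actin, had 34017, 8142, 9398 and 10460.0 CPM in YFP+ libraries, against 5507, 4627, 6211 and 6144 CPM in YFP- libraries. Every YFP+ library was above every YFP- library, and the YFP+ library 21 was more than 3 times the next. The log2 fold change was 1.46 (SE 0.47) and, without that library, 0.73 (SE 0.13), which is near the value of *Pfn1*. *Actg1*, cytoplasmic gamma-actin, had 597, 934, 1040.3 and 1418 CPM in YFP+ libraries, against 662, 637, 843 and 815 CPM in YFP- libraries. Here the YFP+ library 21 was below all others, while the other 3 YFP+ libraries lay above all YFP- libraries. The ratio of *Actb* to *Actg1* CPM was 56.9 in the YFP+ library 21, 7.38 to 9.03 in the other YFP+ and 7.26 to 8.32 in YFP- libraries. The balance of both actins thus overlapped between the groups once that library was set aside, and so did the ratio of *Pfn1* to *Actb*, with 0.167 in the YFP+ library 21, 0.523 to 0.648 in the other YFP+ and 0.497 to 0.587 in YFP- libraries.

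**Figure D3:**
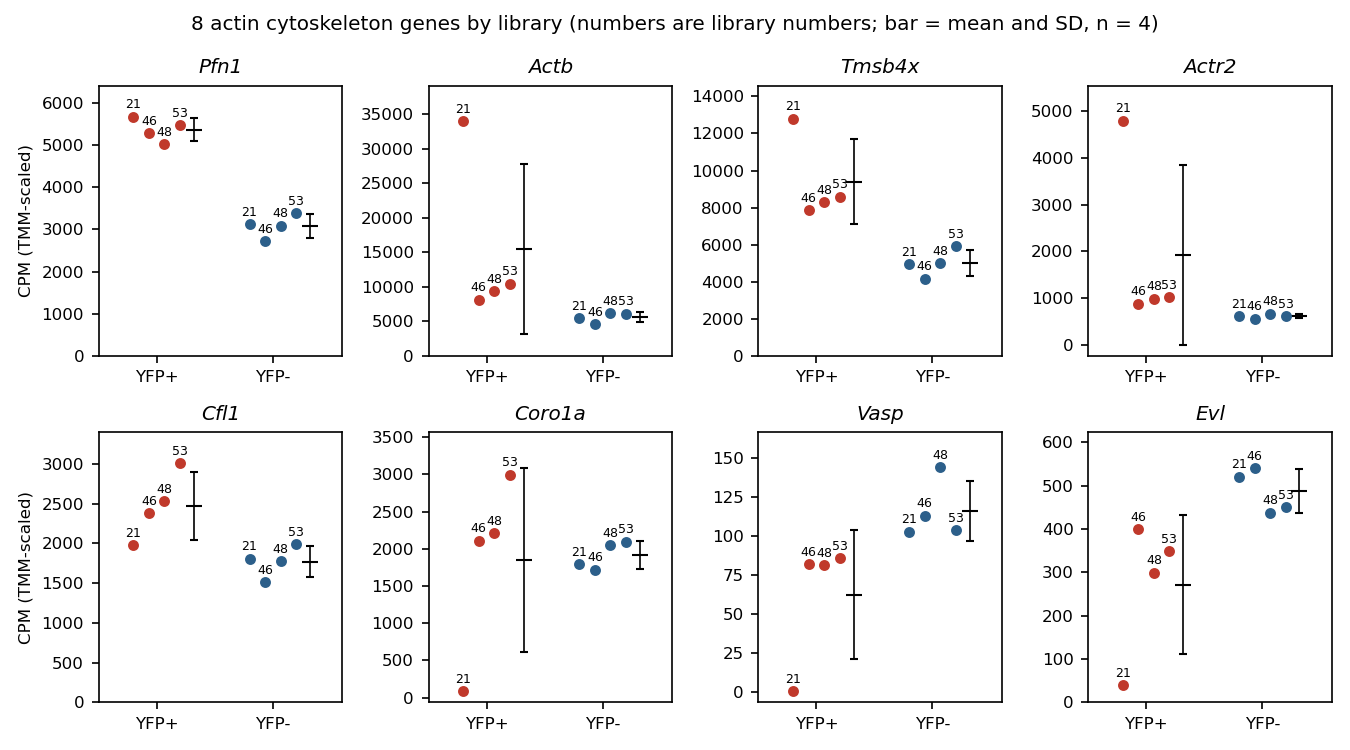
TMM-scaled CPM (y axis, linear) of 8 genes in each YFP+ library (left, red) and each YFP- library (right, blue), labelled with the library number. Black bars give the mean and SD over 4 libraries. The groups of *Pfn1* do not overlap and are tight, while the YFP+ library 21 is far above the others for *Actb*, *Tmsb4x* and *Actr2* and far below them for *Coro1a* and *Vasp*.

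Thymosins and capping proteins had positive log2 fold changes in 5 of 5 genes, between 0.26 and 1.05 with a median of 0.87, and between 0.39 and 0.71 without the YFP+ library 21. *Tmsb4x*, thymosin beta 4, which sequesters the monomers that profilin releases to filaments, had 12805, 7862, 8307 and 8585 CPM in YFP+ libraries, against 4959, 4159, 4989 and 5930.1 CPM in YFP- libraries. Its log2 fold change was 0.91 (SE 0.20), and 0.71 (SE 0.12) without the YFP+ library 21, with no overlap of the groups. *Tmsb10*, a second beta-thymosin, had 9696, 3993, 3939.9 and 4805 CPM in YFP+ libraries, against 2882, 2197, 2559.7 and 3186 CPM in YFP- libraries. Again all YFP+ values were the higher ones, and the library 21 exceeded the next by more than 2-fold. Its log2 fold change was 1.05 (SE 0.32), and 0.64 (SE 0.14) without that library. The ratio of *Tmsb4x* to *Actb* was 0.821 to 0.966 in the YFP+ libraries other than 21 and 0.803 to 0.965 in YFP- libraries, and these ranges overlapped. *Capza1*, a capping protein alpha subunit that closes the fast-growing filament end, had 2231, 1544, 1257 and 1586 CPM in YFP+ libraries, against 899, 900.5, 1001 and 1090.3 CPM in YFP- libraries. The log2 fold change was 0.77 (SE 0.20), or 0.58 (SE 0.12) without the library 21, and the gene was among the 5 genes past the threshold of DESeq2. *Capza2*, the other alpha subunit, behaved alike with 469.8 to 1201 CPM in YFP+, against 325 to 418 CPM in YFP- libraries. *Capzb*, the beta subunit that pairs with either, had 411 to 688 CPM in YFP+, against 439 to 524 CPM in YFP- libraries. Only the YFP+ library 21 kept its groups from separating.

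The Arp2/3 complex, which holds 7 kinds of subunit and branches filaments, was not uniform over its 8 genes. Of these, 6 had positive and 2 negative log2 fold changes, with a median of 0.29, and without the YFP+ library 21 the same numbers with a median of 0.37. *Actr2*, which encodes the actin-related protein Arp2, had 4790.3, 883, 993 and 1021 CPM in YFP+ libraries, against 618, 566, 671 and 622 CPM in YFP- libraries. The log2 fold change of 1.63 (SE 0.57) was the largest positive one of the 54 genes with all libraries and was 0.63 (SE 0.09) without the YFP+ library 21. *Actr3*, which encodes Arp3, had 1982, 1631, 1544 and 1370.4 CPM in YFP+ libraries, against 1096, 1013, 1157 and 1202 CPM in YFP- libraries. All its YFP+ values lay above all YFP- values, and the log2 fold change was 0.55 (SE 0.16), or 0.43 (SE 0.10) without the library 21. *Arpc5*, a small structural subunit, had 2961, 1061, 1046 and 956 CPM in YFP+ libraries, against 681, 611, 679 and 759 CPM in YFP- libraries. It too did not overlap, with 1.14 (SE 0.38) and, without the library 21, 0.58 (SE 0.10) on the log2 scale. *Arpc2*, a core subunit that contacts the mother filament, had 1016 to 1285 CPM in YFP+, against 932 to 992 CPM in YFP- libraries, also without overlap. *Arpc4* had 124 to 339 CPM in YFP+, against 187 to 232 CPM in YFP- libraries, where only the YFP+ library 21 made the groups overlap and 48.8% of the exon bases are free of other annotated genes. *Arpc3* had 153 to 265 CPM in YFP+, against 167 to 230.2 CPM in YFP- libraries and overlapped with and without that library. *Arpc1b*, the isoform of the WD-repeat subunit that is known from blood cells, had 381 to 805 CPM in YFP+, against 642 to 855 CPM in YFP- libraries. Its paralogue *Arpc1a* had 19.0 to 82.2 CPM in YFP+, against 68.8 to 79.9 CPM in YFP- libraries. These 2 were the ones with negative log2 fold changes, -0.30 (SE 0.24) and -0.47 (SE 0.42), and without the library 21 -0.13 (SE 0.13) and -0.19 (SE 0.18). The ratio of *Actr2* to *Arpc1b* was 12.6 in the YFP+ library 21, 1.23 to 1.51 in the other YFP+ and 0.722 to 0.882 in YFP- libraries. That of *Actr3* to *Arpc2* was 1.95 in the YFP+ library 21, 1.15 to 1.39 in the other YFP+ and 1.08 to 1.29 in YFP- libraries. That of *Arpc1b* to *Arpc1a* was 20.1 in the YFP+ library 21, 8.22 to 16.2 in the other YFP+ and 9.05 to 11.1 in YFP- libraries. Without the library 21 the groups overlapped in these 2 ratios and not in the one of *Actr2* to *Arpc1b*, and a difference between subunits was not tested.

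**Figure D4:**
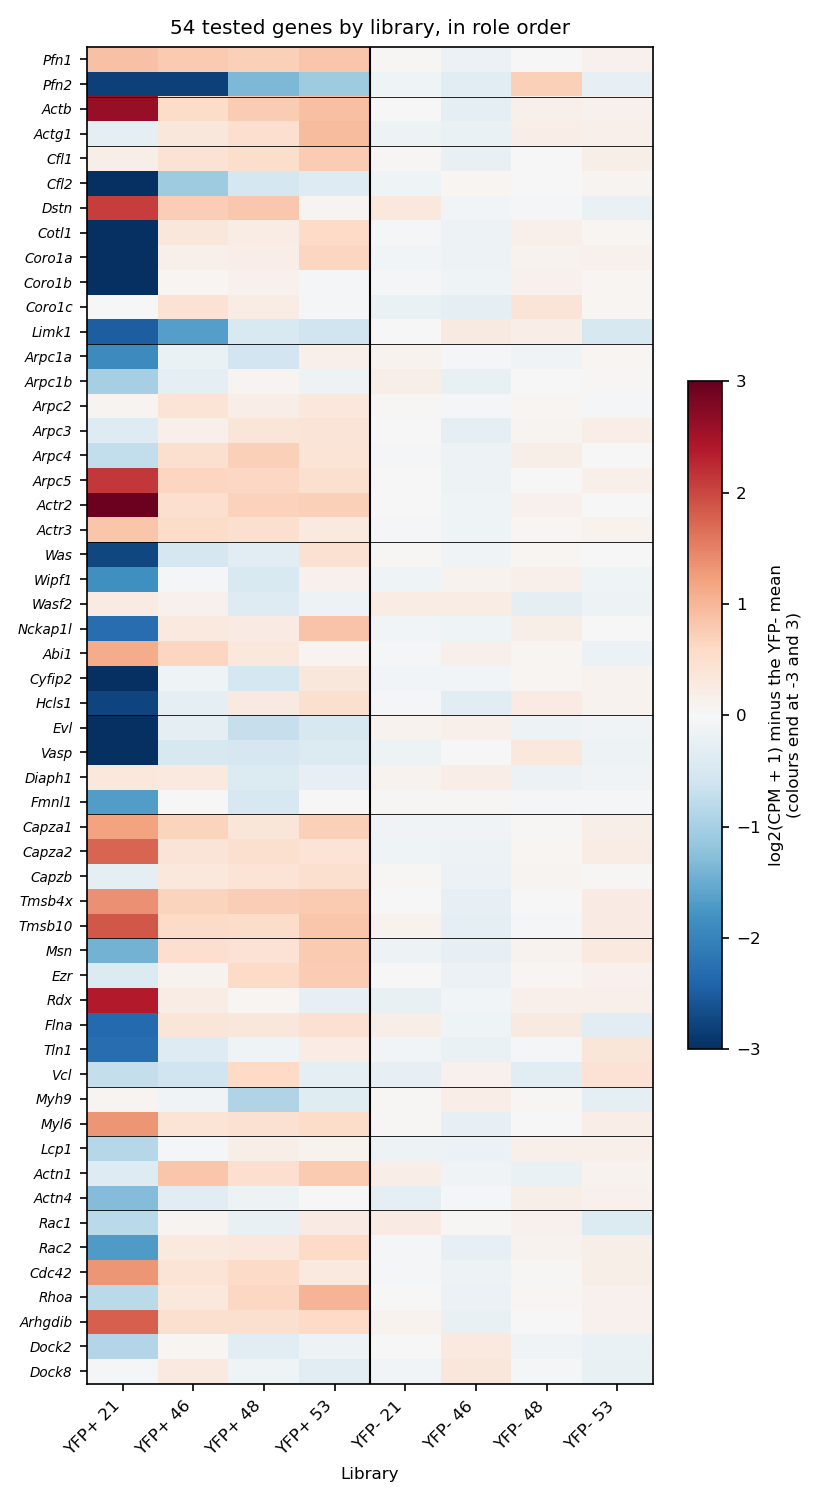
Log2(CPM + 1) of each of the 54 genes in each library minus the mean of the 4 YFP- libraries, in role order from top to bottom, with the YFP+ libraries left of the YFP- libraries and colours that end at -3 and 3. The YFP+ library 21 holds the strongest reds and blues side by side, and the rows of *Pfn1*, *Tmsb4x*, *Tmsb10* and *Capza1* are red in all 4 YFP+ libraries.

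Cofilins and coronins, which sever filaments and clear old ones, had 4 positive and 4 negative log2 fold changes over 8 genes with a median of -0.02. Without the YFP+ library 21 there were 6 positive and 2 negative with a median of 0.26, as the signs of *Coro1a* and *Coro1b* turned. *Cfl1*, the main cofilin of non-muscle cells, had 1977, 2377, 2529 and 3011 CPM in YFP+ libraries, against 1807, 1512, 1777 and 1987 CPM in YFP- libraries. The YFP+ library 21 lay within the YFP- values, and the other 3 YFP+ libraries above them. Its log2 fold change was 0.48 (SE 0.17), or 0.57 (SE 0.12) without the library 21, and only 5.20% of its exon bases are free of the overlapping gene *Snx32*, so its counts may be shared with that gene. *Cfl2*, the muscle-type cofilin, had 0.427, 6.77, 10.4 and 11.5 CPM in YFP+ libraries, against 14.0, 16.1, 15.1 and 16.1 CPM in YFP- libraries. All YFP+ values lay below all YFP- values, with a log2 fold change of -1.07 (SE 0.81), or -0.69 (SE 0.26) without the library 21. Cofilin 1 and cofilin 2 thus had opposite signs, and the ratio of *Cfl1* to *Cfl2* was 243 to 351 in the YFP+ libraries other than 21, against 94.1 to 129 in YFP- libraries. *Limk1*, the kinase that switches cofilin off, had 0.901, 2.36, 6.68 and 5.94 CPM in YFP+ libraries, against 9.51, 11.5, 11.1 and 6.56 CPM in YFP- libraries. It was low in every library, and its groups met at 6.68 CPM in YFP+ and 6.56 CPM in YFP- libraries. *Dstn*, destrin, another member of the cofilin family, had 23.5 to 96.3 CPM in YFP+, against 19.2 to 27.6 CPM in YFP- libraries.

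*Coro1a*, the coronin of leukocytes, had 85.0, 2107, 2206 and 2995 CPM in YFP+ libraries, against 1790.4, 1721, 2046 and 2096 CPM in YFP- libraries. The YFP+ library 21 was far below all others, and the other YFP+ libraries were all above the YFP- libraries, by 0.34 on the log2 scale in the fit without the library 21. *Coro1b* had 0.0948, 275, 290.3 and 255 CPM in YFP+ libraries, against 254, 241, 291 and 273 CPM in YFP- libraries. Its YFP+ library 21 held 2 counts, which is under the floor of 3 counts used here, while the remaining 7 libraries lay together. *Coro1c* had 64.8 to 92.0 CPM in YFP+, against 56.6 to 89.2 CPM in YFP- libraries. *Cotl1*, a coactosin-like protein that binds filaments, had the pattern of *Coro1a*, with 18.6, 291, 267 and 346 CPM in YFP+ libraries and 208 to 256 CPM in YFP- libraries.

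Nucleation-promoting factors switch the Arp2/3 complex on. Of 7 genes, 2 had positive and 5 negative log2 fold changes with a median of -0.18, and none separated the groups. Without the YFP+ library 21 there were 3 positive and 4 negative with a median of -0.07, as *Hcls1* turned positive. *Abi1*, a subunit of the WAVE complex, had the highest level and the largest log2 fold change of them over all libraries, with 725, 519.5, 417 and 353 CPM in YFP+ libraries, against 326, 368, 346 and 294 CPM in YFP- libraries. Its YFP+ library 53 lay within the YFP- values. *Was*, the Wiskott-Aldrich syndrome protein, had 17.2 to 165 CPM in YFP+, against 112 to 126 CPM in YFP- libraries. Its partner *Wipf1* had 60.0 to 237 CPM in YFP+, against 199.5 to 239 CPM in YFP- libraries. Both were lowest in the YFP+ library 21. Other genes here encode parts of the WAVE complex. *Wasf2*, which encodes WAVE2, had 136 to 213 CPM in YFP+, against 145 to 209.7 CPM in YFP- libraries. *Cyfip2*, a Rac-binding subunit, had 15.2 to 237 CPM in YFP+, against 177 to 203 CPM in YFP- libraries. *Nckap1l*, the blood cell form of the subunit it pairs with, had 44.2 to 393 CPM in YFP+, against 199.6 to 247 CPM in YFP- libraries. *Nckap1l* was the only one of the 7 whose YFP+ libraries 46, 48 and 53 all lay above the YFP- libraries. *Hcls1*, a cortactin of blood cells that stabilises branches, had 36.1 to 350.4 CPM in YFP+, against 201 to 296 CPM in YFP- libraries.

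Formins and Ena/VASP proteins use profilin-bound actin to extend filaments, and 1 of 4 genes had a positive and 3 a negative log2 fold change. *Evl*, the Ena/VASP protein of lymphocytes, had 39.6, 399, 299 and 349.6 CPM in YFP+ libraries, against 520.5, 541, 438 and 451 CPM in YFP- libraries. *Vasp* had 0.616, 81.7, 81.0 and 85.8 CPM in YFP+ libraries, against 103, 113, 144 and 104 CPM in YFP- libraries. Neither gene had a YFP+ value that reached its YFP- values, and both were lowest in the YFP+ library 21, where *Vasp* was near 0. Their log2 fold changes were -0.84 (SE 0.57) and -0.89 (SE 0.99), and without that library -0.49 (SE 0.14) and -0.49 (SE 0.14). Neither was past the threshold in any of the 21 fits tried, and 46.9% of the exon bases of *Evl* are free of other annotated genes. The formin *Diaph1* had 93.8 to 155 CPM in YFP+, against 109.8 to 143 CPM in YFP- libraries. *Fmnl1*, a formin of leukocytes, had 38.4 to 126 CPM in YFP+, against 121 to 128 CPM in YFP- libraries. Both formins overlapped, with log2 fold changes of 0.01 (SE 0.23) and -0.39 (SE 0.36), and without the YFP+ library 21 -0.11 (SE 0.20) and -0.14 (SE 0.14).

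Linkers tie filaments to the membrane and to adhesions. Moesin, ezrin and radixin are close relatives with this function, and their RNAs split in the YFP+ library 21. *Msn*, moesin, the main one in lymphocytes, had 442, 1681, 1608 and 2057 CPM in YFP+ libraries, against 1069, 1005, 1288 and 1454 CPM in YFP- libraries. The library 21 was lowest of all 8, and the other 3 YFP+ libraries were highest. *Rdx*, radixin, had 907, 203, 181 and 146 CPM in YFP+ libraries, against 149, 166, 195 and 194 CPM in YFP- libraries. Its log2 fold change was 1.03 (SE 0.59) with all libraries but 0.00 (SE 0.15) without the library 21, so that its positive value rested on this library. *Ezr*, ezrin, had 171 to 383 CPM in YFP+, against 199 to 248 CPM in YFP- libraries. The ratio of *Rdx* to *Msn* was 2.05 in the YFP+ library 21, 0.0711 to 0.121 in the other YFP+ and 0.133 to 0.165 in YFP- libraries. *Flna*, which cross-links filaments, had 24.2 to 173 CPM in YFP+, against 101 to 152 CPM in YFP- libraries. *Tln1*, which couples integrins to actin, had 27.7 to 163 CPM in YFP+, against 120.4 to 178 CPM in YFP- libraries. Both were lowest in the YFP+ library 21. *Vcl*, vinculin, whose window holds a CArG box, was low with 3.32 to 9.70 CPM in YFP+, against 4.69 to 8.62 CPM in YFP- libraries.

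Myosin II pulls on filaments. *Myl6*, an essential light chain with a CArG box at an internal start, had 1183, 628, 646 and 686 CPM in YFP+ libraries, against 479.9, 393, 473 and 542 CPM in YFP- libraries. The groups did not overlap, and the log2 fold change was 0.73 (SE 0.24), or 0.46 (SE 0.11) without the YFP+ library 21. *Myh9*, the heavy chain, did not follow, with 191 to 377 CPM in YFP+, against 297 to 413 CPM in YFP- libraries and a log2 fold change of -0.29 (SE 0.24), or -0.43 (SE 0.21) without that library. Of the 4 genes with a CArG box in a window, *Myl6* alone separated the groups over all 8 libraries. Without the YFP+ library 21, *Actg1*, *Myl6* and *Arpc4* did so, and *Vcl* overlapped in both. Every YFP+ library lay above every YFP- library in 13 of the 54 genes tested and in 7.83% of all genes. Without the YFP+ library 21 this held for 25 of the 54 and for 12.5% of all genes. A part of the CArG box in these differences was not tested.

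Filament bundlers were 3 genes. *Lcp1*, L-plastin of leukocytes, was among the abundant genes with 1128, 1997, 2286 and 2192 CPM in YFP+ libraries, against 1842, 1802, 2276 and 2252 CPM in YFP- libraries. Apart from the YFP+ library 21 its values lay together. *Actn1*, alpha-actinin 1, had 65.0, 151, 122 and 147 CPM in YFP+ libraries, against 98.1, 78.5, 73.9 and 91.4 CPM in YFP- libraries. Its YFP+ libraries 46, 48 and 53 were above all YFP- libraries, and the log2 fold change was 0.50 (SE 0.29), or 0.70 (SE 0.14) without the library 21. Its paralogue *Actn4* had 78.4 to 195 CPM in YFP+, against 159 to 221 CPM in YFP- libraries and a log2 fold change of -0.37 (SE 0.29), or -0.17 (SE 0.15) without the library 21, which is of the other sign.

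The remaining genes act in signals for actin assembly. *Arhgdib* had 6362, 2559.8, 2564 and 2796 CPM in YFP+ libraries, against 1976, 1576, 1856 and 2009 CPM in YFP- libraries. All YFP+ values were the higher ones, with a log2 fold change of 0.95 (SE 0.32), or 0.50 (SE 0.10) without the YFP+ library 21, and 10.4% of its exon bases are free of other annotated genes, here *Pde6h*. *Cdc42*, the GTPase of filopodia and polarity, had 869.9 to 1776 CPM in YFP+, against 640.0 to 808 CPM in YFP- libraries and did not overlap. *Rhoa*, which drives contraction, had 126 to 448 CPM in YFP+, against 196 to 239 CPM in YFP- libraries. *Rac2*, the Rac of blood cells, had 512 to 2533 CPM in YFP+, against 1415 to 1889 CPM in YFP- libraries. Both were lowest in the YFP+ library 21. *Rac1*, of whose exon bases 48.6% are free of other annotated genes, had 21.2 to 45.4 CPM in YFP+, against 28.4 to 44.9 CPM in YFP- libraries. Without the YFP+ library 21, *Rhoa* and *Rac2* lay above all YFP- libraries and *Rac1* did not. *Dock2*, an exchange factor for Rac, had 309.9 to 596 CPM in YFP+, against 498 to 702 CPM in YFP- libraries. *Dock8*, one for Cdc42, had 327 to 512 CPM in YFP+, against 358 to 523 CPM in YFP- libraries. Both overlapped and had log2 fold changes below 0.

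The coefficient of variation of the 54 genes between YFP- libraries had a median of 12.3% (2.79% to 44.4%), against 19.8% over all genes tested. These sets of genes were not matched for level. Between YFP+ libraries the median was 46.0% with and 14.1% without the library 21, against 70.2% and 32.4% over all genes. That library was below the other 7 in 31 of the 54 genes (40.5% of all genes) and above them in 17 (29.4%), and within their range in 6. Its deviation moved with base composition. Across the 54 genes, the deviation of the YFP+ library 21 from the YFP- mean and the GC content of the transcript had Pearson's r = -0.50 and Spearman's coefficient = -0.51, a description across genes that share 1 library and are no independent replicates. The same r was -0.22, -0.31 and -0.10 in YFP+ libraries 46, 48 and 53, and -0.26 in the library 21 over 15060 genes. Transcript length moved with the deviations of other libraries, with Pearson's r of -0.13, -0.18, -0.41 and -0.39 across the 54 genes in YFP+ libraries 21, 46, 48 and 53, against -0.13, 0.54, -0.08 and -0.33 in YFP- libraries. Of the 27 genes above the median GC content of 51.8%, the library 21 was below all others in 20 and above in 4. Of the 27 at or below it, it was below in 11 and above in 13. Without that library, the median log2 fold change was 0.17 in the upper and 0.42 in the lower of these GC groups, where all genes had -0.07 and 0.02. *Pfn1*, with a GC content of 55.4%, lies in the upper one. The part of GC content and transcript length in the difference between the groups was not tested.

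**Figure D5:**
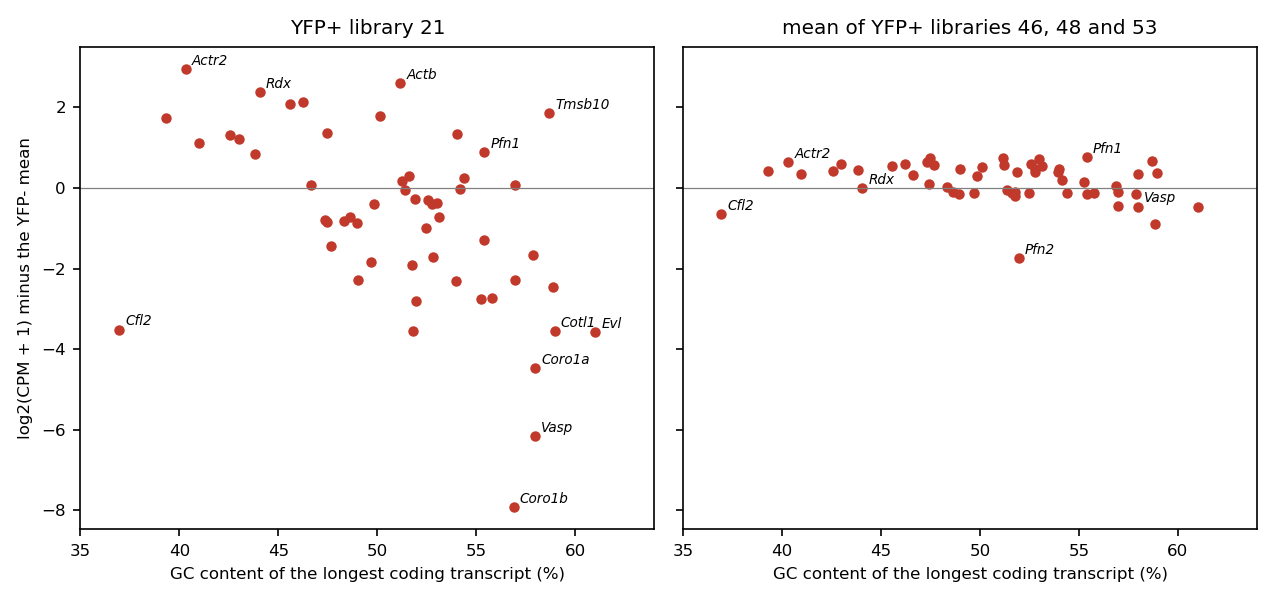
GC content of the longest coding transcript (x axis, %) against log2(CPM + 1) minus the mean of the 4 YFP- libraries (y axis), with 1 point for each of the 54 genes, for the YFP+ library 21 (left) and the mean of the YFP+ libraries 46, 48 and 53 (right). In the left panel *Actr2* and *Rdx* at low GC content lie high and *Coro1b*, *Vasp* and *Coro1a* at high GC content lie low (r = -0.50), while *Cfl2* is low at 36.9% GC. In the right panel all points but that of *Pfn2* lie within 1 log2 unit of 0.

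The wider actin pathway was looked at through 128 further symbols, chosen by function, of which 124 were in the table and 102 were tested. None was past the threshold of edgeR in either direction, where 0.0332% of all genes were higher and 0.836% lower. At an unadjusted p under 0.05 there were 7, of which 2 were higher and 5 lower, where 7.21% of all genes were higher and 5.35% lower, and DESeq2 called 1 higher and 1 lower. The log2 fold change was positive in 38 and negative in 64 of the 102, with a median of -0.19, and this balance was the same, 38 and 64 with a median of -0.13, without the YFP+ library 21. The smallest unadjusted p belonged to *Coro2a*, a coronin, with 251, 344, 193 and 227 CPM in YFP+ libraries, against 414, 493, 496 and 472 CPM in YFP- libraries. All YFP+ values lay below all YFP- values, with a log2 fold change of -0.89 (SE 0.21) and an edgeR adjusted p of 0.128, which became -0.89 (SE 0.21) and 0.0486 without the YFP+ library 21. *Rhoh*, needed for T cell receptor signalling, had 405 to 609 CPM in YFP+, against 675 to 795 CPM in YFP- libraries (edgeR adjusted p = 0.347). *Arhgef1*, an exchange factor of leukocytes, had 55.0 to 282 CPM in YFP+, against 312 to 419.7 CPM in YFP- libraries (edgeR adjusted p = 0.354). Among those with positive log2 fold changes, *Tpm4*, a tropomyosin that coats filaments, had 103 to 145 CPM in YFP+, against 85.4 to 97.5 CPM in YFP- libraries without overlap, yet with an edgeR adjusted p of 0.419. *Gmfb*, which removes Arp2/3 branches, and *Pak2*, a kinase below Rac and Cdc42, were highest in the YFP+ library 21, at 587 and 968 CPM.

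Without the YFP+ library 21, edgeR put 6 of 104 of these genes past the threshold, 2 higher (2.68% of all genes) and 4 lower (3.97%), and they are named here after their values were seen. *Wdr1*, a partner of cofilin, rose by 0.40 (SE 0.09) on the log2 scale, with 773 to 838 CPM in the YFP+ libraries 46, 48 and 53 and 532 to 645 CPM in YFP- libraries (edgeR adjusted p = 0.0493). *Add3*, an adducin that links spectrin to filament ends, was higher by 0.61 (SE 0.09) (edgeR adjusted p = 0.0188). Lower besides *Coro2a* were *Cyfip1*, the paralogue of *Cyfip2* in the WAVE complex, with a log2 fold change of -1.06 (SE 0.23), *Nf2*, a relative of the moesin family, with -0.93 (SE 0.19), and *Arhgap25*, a Rac inactivator of blood cells, with -0.52 (SE 0.11). The edgeR adjusted p-values of these 3 were 0.0437, 0.0393 and 0.036.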

How the data were processed

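Bulk RNA of sorted CD4+ CD25+ Treg cells was measured in 4 YFP+ and 4 YFP- libraries, made with a low-input cDNA kit. The authors deposited whole-number counts per gene, not normalized, with 1 column per library, and columns were assigned by names equal to the sample titles. The submitters' processing notes name Trim Galore, STAR and mm10. How reads were counted (tool, annotation, strand) is not given in the sources read, so overlapping genes may share counts.

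edgeR 4.0.16 in R 4.3.3 tested the counts (minimum count 10, minimum total 15, TMM, quasi-likelihood test, condition only), with Benjamini-Hochberg adjustment over all genes tested and a threshold of 0.05. SE is the absolute log2 fold change over the square root of F. Coordinates and lengths are from GENCODE M21, which holds 99.5% of the table's identifiers. Scripts were tested on simulated data. The floor of 3 counts equals 0.0374 to 0.142 CPM, which covers counting error only. Alternatives were DESeq2 1.42.0, other factors and filters, robust dispersion, a block for the library number, and libraries left out.

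The genes, the list of further actin genes, the markers and the alternatives were chosen with earlier results of these data known. Values in every library are given for both profilins, for the gene with the highest CPM and the one with the largest log2 fold change in each role, and for up to 8 genes each of those whose groups did not overlap and those past the threshold without the YFP+ library 21. *Actg1*, *Coro1a*, *Coro1b* and *Cotl1* were added after their values were seen. Of the further actin genes, the 3 smallest p-values in each direction above a minimum level were named.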

Additional observations from a re-analysis of the deposited data

Results flagged for a closer look

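In 74 groups of 4 libraries, the highest or lowest library was compared with the nearest other by Dixon's ratio. The groups were the summed CPM of each role and of all 56 genes, and those of the 56 genes given by library, in both fractions. The ratio flags about 1 in 20 groups by chance (3.70 here). It picked out 16, of which 13 were the YFP+ library 21. The groups are not independent, since genes are part of the sums and share the same libraries. *Actg1*, *Coro1a*, *Coro1b* and *Cotl1* were also added after their values were seen. The flags are therefore a description, and nothing is read from 16 against 3.70.

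That library was the highest YFP+ library for the summed CPM of the actins (34615 CPM, others 9076 to 11878), the Arp2/3 complex (11425 CPM, others 5837 to 6144) and the capping proteins with thymosins (26345 CPM, others 14489 to 16147). It was likewise the highest for *Actb* (34017 CPM, others 8142 to 10460.0), *Actr2* (4790.3 CPM, others 883 to 1021), *Arpc5* (2961 CPM, others 956 to 1061), *Tmsb4x* (12805 CPM, others 7862 to 8585) and *Tmsb10* (9696 CPM, others 3939.9 to 4805). The same held for *Rdx* (907 CPM, others 146 to 203), *Myl6* (1183 CPM, others 628 to 686) and *Arhgdib* (6362 CPM, others 2559.8 to 2796). It was the lowest for *Vasp* (0.616 CPM, others 81.0 to 85.8) and *Coro1b* (0.0948 CPM, 2 counts, others 255 to 290.3).

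Of the YFP- libraries, 46 was the lowest for the summed CPM of the Arp2/3 complex (4194 CPM, others 4713 to 4803) and of myosin II (806 CPM, others 839 to 844). The YFP- library 48 was the highest for *Pfn2* (10.5 CPM, others 4.48 to 5.38).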

How the results depend on the processing

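The 131 genes past the threshold with all 8 libraries became 10 with no filter on low counts, 9 with the stricter filter and 1095 with DESeq2. The 1 actin gene, *Pfn1*, became 0 with RLE factors, with no filter and with the stricter filter, and 5 with DESeq2, which also called 2 of the other actin pathway genes. Leaving out libraries, 1 at a time or both of a number, gave 0 to 1052 genes, 0 to 13 actin genes and 0 to 6 other pathway genes, with the upper values without the YFP+ library 21. Without the YFP+ libraries 21 and 48 together these counts were 940, 7 and 4. Without TMM factors the mean summed level was 59407 CPM in YFP+ and 45193 CPM in YFP- libraries, in place of 67444 and 40819 CPM. The median log2 fold change of the actin genes was 0.11 with all libraries and ranged from -0.05 to 0.35 over all settings, and it was negative without both libraries numbered 46 and, at -0.03, with the library number as a replicate block. Of 27 actin and pathway genes followed through all 21 settings, 25 kept the sign of their log2 fold change, and *Rdx* and *Lcp1*, which were past the threshold in none, did not. The cause of these changes was not tested.

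Library numbers were checked as a pairing. The deviations of same-numbered libraries correlated at 0.0489, 0.0682, 0.140 and 0.0950. The best partner was the own number for 46, 48 and 53 and not for 21. These small positive values do not settle whether the numbers are pairs. The main fit used the condition only, as the labels do not give the numbers as pairs. With the number as a replicate block 0 genes and 0 actin genes were past the threshold, with 1440 genes at an unadjusted p under 0.05.

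Depth was 29719251 to 70782679 counts, so counting error was small for all but *Pfn2*, *Limk1*, *Vcl* and *Cfl2*, and *Coro1b* and *Vasp* in the YFP+ library 21 (2 and 13 counts), and the spread between libraries set the precision.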
